A study of Mus musculus with 4 samples.

Results

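Hedgehog pathway genes were examined in bulk RNA-seq of calvarial bone, as the 9 genes *Ihh*, *Shh*, *Ptch1*, *Smo*, *Gli1*, *Gli2*, *Gli3*, *Hhip* and *Sufu*, chosen by symbol from the pathway. All 9 were found among the 23946 genes of the deposited tables. The RNA was that of frontal bone and parietal bone taken from wild-type and *Twist1*+/- mice, the last of which carry 1 intact copy of the transcription factor gene *Twist1*, at postnatal day 21. Per the labels every group shared the C57BL/6J background and no treatment is named. The paper's methods give 12 mice of each strain, and how many animals went into a library is not given in the sources used here. Each of the 4 groups (wild-type frontal, *Twist1*+/- frontal, wild-type parietal, *Twist1*+/- parietal) is 1 library, so no difference below has a replicate check, no error and no p-value can be given, and each comparison is between libraries.

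Hedgehog ligands are secreted proteins that bind the receptor Patched, which in the absence of ligand holds the membrane protein Smoothened inactive. Binding frees Smoothened, and through the primary cilium the Gli transcription factors then pass from repressor to activator forms. *Gli1*, *Ptch1* and *Hhip* are themselves induced by the pathway and are commonly read as its output, and the last of these binds and sequesters ligand. In the skeleton Indian hedgehog is known from the growth plate and from bone-forming cells, and in the calvaria cells expressing *Gli1* mark stem cells of the sutures. By origin, frontal bone is a neural crest derivative and parietal bone a mesodermal one.

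The sequence upstream of the start is shown for *Ihh*, the member whose level differed most between libraries, and for *Ptch1* and *Hhip*, which the pathway is known to induce. Each run is the 250 bases before the RefSeq start on the assembly GRCm38.p6, written 5′ to 3′ on the strand of the gene, and capitals mark CCACCC or its reverse complement GGGTGG, the core of the Gli binding motif.
Ihh (chr1:74951673-74951922, reverse strand): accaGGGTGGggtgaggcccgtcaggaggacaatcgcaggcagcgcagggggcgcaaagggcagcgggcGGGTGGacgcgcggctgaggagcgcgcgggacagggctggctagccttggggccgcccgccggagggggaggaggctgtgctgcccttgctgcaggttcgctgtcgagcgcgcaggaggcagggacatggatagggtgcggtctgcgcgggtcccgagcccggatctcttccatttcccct
Ptch1 (chr13:63565736-63565985, reverse strand): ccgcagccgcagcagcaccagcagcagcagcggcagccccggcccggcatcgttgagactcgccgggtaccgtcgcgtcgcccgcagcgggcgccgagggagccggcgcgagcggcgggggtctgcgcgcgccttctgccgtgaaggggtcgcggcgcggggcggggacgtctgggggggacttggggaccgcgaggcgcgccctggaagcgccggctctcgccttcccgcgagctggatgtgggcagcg
Hhip (chr8:80058009-80058258, reverse strand): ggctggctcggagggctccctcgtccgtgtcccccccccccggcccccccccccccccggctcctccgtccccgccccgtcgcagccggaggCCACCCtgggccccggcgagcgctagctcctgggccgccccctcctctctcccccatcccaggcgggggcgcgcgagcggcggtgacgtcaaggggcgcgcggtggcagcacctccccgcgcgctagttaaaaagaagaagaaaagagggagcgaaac
The core stood in the 250-base window of 5 of the 7 members with a promoter sequence (*Ihh*, *Gli2*, *Smo*, *Hhip* and *Gli3*) and in 28.1% of 32851 windows of the same length from 27025 genes. The full motif GACCACCCA or its reverse complement TGGGTGGTC was in none of the 7 windows and in 0.225% of all windows. Both motifs were searched on both strands, and the core lies inside the full motif. The *Ptch1* window held neither. These matches describe letters only, and the share over all windows was not matched for base content. GC content was 67.2% to 76% in the 5 windows with the core, 78.4% in that of *Ptch1* and 54% in that of *Sufu*.

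Values are FPKM, fragment counts scaled by transcript length and by a measure of library size, so that levels of different genes can be compared per length. *Twist1* was listed at 59.0 FPKM in wild-type frontal, 30.4 in *Twist1*+/- frontal, 52.5 in wild-type parietal and 50.7 FPKM in labelled *Twist1*+/- parietal bone. That last library is therefore named by its label throughout, and every direction drawn from it rests on the label. Among 13 osteoblast and osteocyte markers, of which *Spp1* had the highest mean, at 4107 to 12239 FPKM, 11 to 13 reached 1 FPKM in each library, and *Col1a1* and *Col1a2* were listed at 0 in all libraries but wild-type parietal, so a 0 in these tables is not read as absence. FPKM values do not give the depth of a library. In genes between 0.005 and 0.1 FPKM in both libraries, where 1 read sets the value of many, the most frequent ratio was 1.27 for *Twist1*+/- over wild-type frontal, 1.34 for wild-type parietal over *Twist1*+/- frontal and 0.973 for labelled *Twist1*+/- over wild-type parietal bone. Only 17.5% to 18.0% of those genes lay within 0.1 (log2) of it, so relative depth is known roughly at best. *Gapdh*, a gene of glycolysis used for scaling, was at 158 to 215 FPKM. Past 3-fold means a ratio of FPKM above 3 with 1 FPKM or more in the higher library.

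Ligand genes were the lowest of the pathway. *Ihh*, which encodes Indian hedgehog, was at 0.368 FPKM in wild-type frontal, 0.646 in *Twist1*+/- frontal, 0.273 in wild-type parietal and 1.53 FPKM in labelled *Twist1*+/- parietal bone. It was thus highest in the library labelled *Twist1*+/- parietal and lowest in wild-type parietal bone, 5.62-fold apart, a log2 ratio of 2.49. It was the only one of the 9 members past 3-fold in that comparison, in which 8.19% of the 13914 genes at or above 1 FPKM were called. It entered that set of genes only through its value in the library labelled *Twist1*+/- parietal. Between the frontal libraries *Ihh* was 1.75-fold higher in the *Twist1*+/- library, with both values under 1 FPKM. *Ihh* spans 74991891 to 74998246 of chromosome 1 (mm9, reverse strand), with 3 exons in its longest coding transcript. None of the 75-base windows of that transcript occurs in the coding transcripts of another gene.

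*Shh*, which encodes Sonic hedgehog (chromosome 5 of mm9, from 28783355 to 28793641, reverse strand, 3 exons), was at 0.135 FPKM in wild-type frontal, 0.0891 in *Twist1*+/- frontal and 0.196 FPKM in labelled *Twist1*+/- parietal bone, and was listed at 0 in wild-type parietal bone. It was the only member under 1 FPKM in every library, and no ratio is given against a value listed at 0. Desert hedgehog, encoded by *Dhh*, was at 0.784, 0.416, 0.149 and 0.298 FPKM in wild-type frontal, *Twist1*+/- frontal, wild-type parietal and labelled *Twist1*+/- parietal bone. The leading ligand thus differed between libraries. In wild-type frontal bone *Dhh* held 60.9% of the summed FPKM of the 3 ligand genes and *Ihh* 28.6%. In the other libraries *Ihh* led, with 56.1% in *Twist1*+/- frontal, 64.7% in wild-type parietal and 75.7% in the library labelled *Twist1*+/- parietal.

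**Figure D1:**
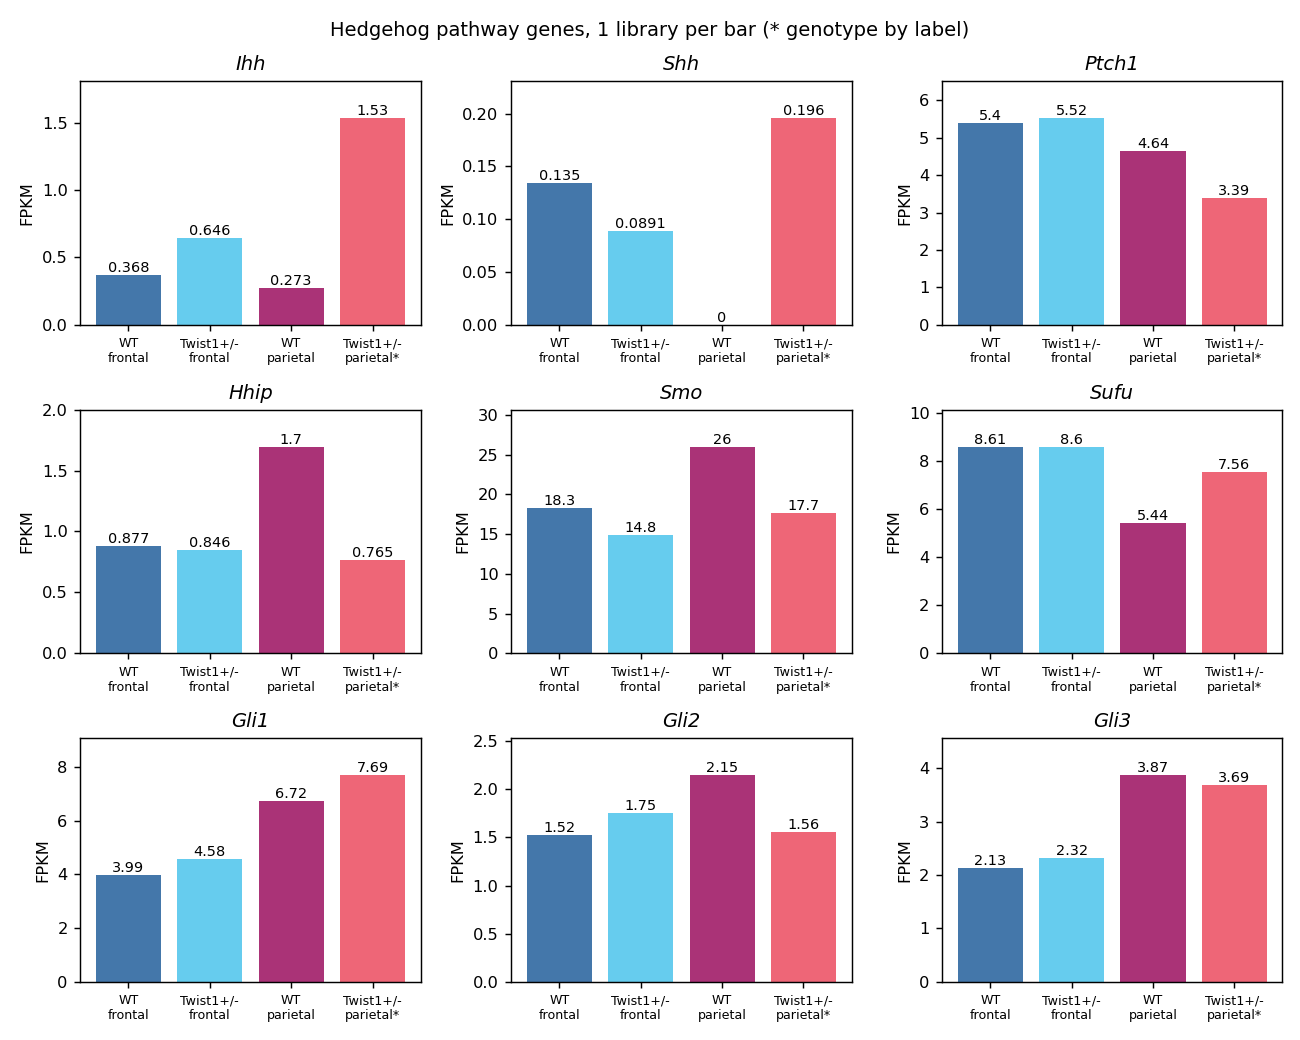
FPKM (vertical axis, from 0) of the 9 Hedgehog pathway genes in 4 libraries, 1 bar per library with its value above it (WT, wild type, and an asterisk for the library whose genotype rests on its label). *Ihh* and *Shh* are highest in the library labelled *Twist1*+/- parietal and lowest in wild-type parietal bone, whereas *Gli1* and *Gli3* are higher in both parietal than in both frontal libraries.

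Several values moved beside that of *Ihh*. The summed FPKM of 12 epithelium markers was 17.6 in wild-type frontal, 68.9 in *Twist1*+/- frontal, 6.84 in wild-type parietal and 57.6 in the library labelled *Twist1*+/- parietal, and none of these genes was listed at 0. Of the 12, 10 were past 3-fold higher in the labelled *Twist1*+/- parietal library than in wild-type parietal bone and 7 were so between the frontal libraries. The summed FPKM of 8 tooth markers was 23.1, 104, 4.86 and 128 in the same order, with 4 and 5 of the 8 past 3-fold higher with the *Twist1*+/- label in parietal and frontal bone. *Dspp* and *Amtn* were listed at 0 in wild-type parietal bone and *Klk4* in wild-type frontal bone. Both marker sums, like *Ihh* and *Shh*, were lowest in wild-type parietal bone. The tooth sum had the same order of libraries as *Ihh*, highest in the library labelled *Twist1*+/- parietal. The epithelium sum was highest in *Twist1*+/- frontal bone, and *Ihh* was not. The cartilage sum, given below, was also lowest in wild-type parietal bone, but its order of libraries was that of its highest gene, *Col11a2*. The median FPKM of the cartilage list was instead highest in wild-type parietal bone, at 2.04, 1.32, 6.65 and 1.76 in the same order. The sum of 8 endothelial markers was also lowest in wild-type parietal bone, at 139, 150, 137 and 159 FPKM in the same order. *Epcam*, the epithelium marker of highest mean, was at 3.86, 15.5, 3.46 and 16.6 FPKM, and *Amelx*, an enamel matrix gene and the tooth marker of highest mean, at 10.8, 39.6, 0.0760 and 101 FPKM. The part of these cells in the values of *Ihh* and *Shh* was not tested, and in bulk bone fewer cells of a type and less RNA per cell cannot be told apart. Of 14 cartilage markers, 6 were past 3-fold higher and 1 lower in wild-type parietal than in wild-type frontal bone, and 6 were lower and 1 higher in the library labelled *Twist1*+/- parietal than in wild-type parietal bone. Their summed FPKM was 364, 266, 175 and 357 in the order above, and *Matn1* stood at 0 in labelled *Twist1*+/- parietal bone. *Col11a2*, the highest gene of the list in every library, was at 337, 236, 79.9 and 305 FPKM.

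GC content also moved with this ratio. The longest coding transcript of *Ihh* has a GC content of 62.3%, above 98.2% of genes, and in the parietal comparison the log2 ratio of the most GC-rich 5% of genes had a median of 0.70. With the median of genes of similar GC content subtracted, the log2 ratio of *Ihh* was 1.79, still past 3-fold. On the scale of log2(FPKM + 1), which understates the change of low genes, it was 0.99, which is not past 3-fold.

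Of the 2 members that bind ligand, the higher in every library was *Ptch1* (chromosome 13 of mm9, from 63610261 to 63674474, reverse strand, 23 exons), which encodes Patched. It was at 5.40 FPKM in wild-type frontal, 5.52 in *Twist1*+/- frontal, 4.64 in wild-type parietal and 3.39 FPKM in labelled *Twist1*+/- parietal bone. Its range over the libraries was 1.63-fold, with the lowest value in the library where *Ihh* was highest. *Hhip* (chromosome 8, from 82490014 to 82581905, reverse strand, 13 exons), which encodes the ligand-binding inhibitor, was at 0.877, 0.846, 1.70 and 0.765 FPKM in the same order. *Hhip* stood apart in wild-type parietal bone, while its values in the other libraries lay close together. It was 2.22-fold lower in the library labelled *Twist1*+/- parietal than in wild-type parietal bone, a log2 ratio of -1.15, and past 2-fold were 20.2% of genes in that comparison. With the GC trend subtracted the log2 ratio of *Hhip* was -0.70, within 2-fold.

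*Smo*, which encodes Smoothened (chromosome 6 of mm9, from 29685694 to 29711365, forward strand, 12 exons), was the highest member in every library. It was at 18.3 FPKM in wild-type frontal, 14.8 in *Twist1*+/- frontal, 26.0 in wild-type parietal and 17.7 FPKM in labelled *Twist1*+/- parietal bone. Its level exceeded that of 79.9% to 87.3% of all genes. Of 3705 windows of 75 bases in its longest coding transcript, 42 also occur in *Gm4066*. *Sufu* (chromosome 19, from 46471386 to 46563294, forward strand, 12 exons) encodes the suppressor that holds Gli proteins in the cytoplasm and was at 8.61, 8.60, 5.44 and 7.56 FPKM in the same order. *Smo* was highest and *Sufu* lowest in wild-type parietal bone, so that the ratio of *Smo* to *Sufu* was 4.77 there against 2.13 in wild-type frontal, 1.72 in *Twist1*+/- frontal and 2.34 in the library labelled *Twist1*+/- parietal. As deposited, neither gene passed 2-fold in any comparison. With the GC trend subtracted, the log2 ratio of *Smo* between the parietal libraries was -1.11, past 2-fold. With each library scaled to the same *Gapdh* value, that of *Sufu* between the wild-type bones was -1.11, also past 2-fold.

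Of the Gli transcription factors, *Gli1* (chromosome 10 of mm9, from 126766945 to 126778645, reverse strand, 13 exons), an activator, was at 3.99 FPKM in wild-type frontal, 4.58 in *Twist1*+/- frontal, 6.72 in wild-type parietal and 7.69 FPKM in labelled *Twist1*+/- parietal bone. Both parietal libraries were above both frontal libraries. The ratio of parietal to frontal bone was 1.68 in each genotype, with log2 ratios of 0.75 and 0.75. The ratio of the *Twist1*+/- label to wild type was 1.14 in parietal and 1.15 in frontal bone, so as deposited *Gli1* differed more between bones than between genotypes. With each library scaled to the same *Gapdh* value this order turned for wild-type parietal bone, where the log2 ratio was 0.31 to wild-type frontal bone and 0.59 for the labelled *Twist1*+/- parietal library against it. *Gli3* (chromosome 13, from 15555068 to 15821859, forward strand, 15 exons), whose product acts mainly as a repressor, was at 2.13, 2.32, 3.87 and 3.69 FPKM in the same order. It was likewise higher in both parietal libraries, by a log2 ratio of 0.86 in wild-type and 0.67 in *Twist1*+/- bone. *Gli2* (chromosome 1, from 120730709 to 120950196, reverse strand, 14 exons), the main activator that responds to ligand, was at 1.52, 1.75, 2.15 and 1.56 FPKM, highest in wild-type parietal bone. *Gli1* held 52.3% to 59.4% of the summed FPKM of the Gli genes and *Gli2* held 12.0% to 20.2%, so that the order of *Gli1*, *Gli3* and *Gli2* was the same in every library.

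Among the 9 members, *Gli1* and *Gli3* were higher in parietal than in frontal bone by more than 1.5-fold in both genotypes, a limit chosen after their values were seen. Of the 14760 genes that reached 1 FPKM in any library, 6.17% met it. These comparisons of bones share no library. *Smo* was higher in parietal bone in both genotypes by less than that, with log2 ratios of 0.51 and 0.26, and *Ptch1* and *Sufu* were lower in both. With the GC trend subtracted, the log2 ratio between the bones labelled *Twist1*+/- became 0.42 for *Gli1*, under 1.5-fold, and -0.01 for *Smo*, and that of *Gli3* became 0.80. With each library scaled to the same *Gapdh* value, the log2 ratio between the wild-type bones became 0.42 for *Gli3*, under 1.5-fold as was that of *Gli1*. Markers of other cells also differed between the bones. The summed FPKM of 8 osteoclast markers was 2614 in wild-type frontal, 3259 in *Twist1*+/- frontal, 9181 in wild-type parietal and 6717 in the library labelled *Twist1*+/- parietal, and that of 14 skeletal muscle markers was 147, 1654, 4483 and 2234. No gene of these lists was listed at 0. Of the osteoclast markers, of which the protease gene *Ctsk* had the highest mean, at 1027, 1229, 4782 and 2601 FPKM, 6 were past 3-fold higher in parietal than in frontal wild-type bone and none was so between the bones labelled *Twist1*+/-. Of the muscle markers, 13 were past 3-fold higher in parietal than in frontal wild-type bone and 13 were so in *Twist1*+/- than in wild-type frontal bone. *Mylpf*, the muscle marker of highest mean, was at 25.0, 352.6, 1295 and 357 FPKM. The part of osteoclasts and muscle in the values of *Gli1* and *Gli3* was not tested.

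**Figure D2:**
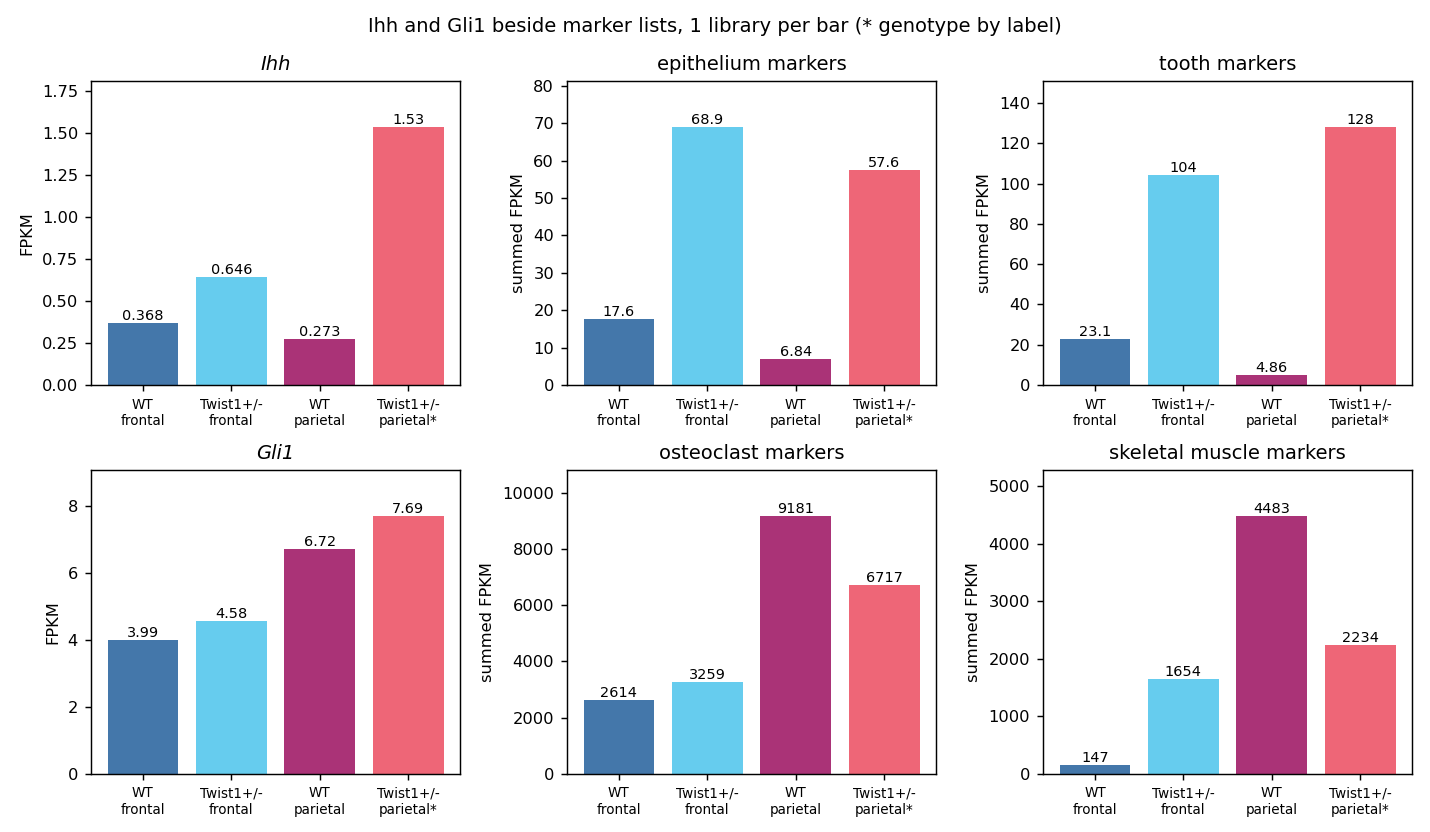
FPKM of *Ihh* and *Gli1* and summed FPKM of 4 marker lists (vertical axes, from 0) in the 4 libraries, 1 bar per library (WT, wild type, and an asterisk for the genotype taken from the label). Epithelium and tooth markers are lowest in wild-type parietal bone, as *Ihh* is, and osteoclast markers are higher in both parietal libraries, as *Gli1* is. The epithelium sum is highest in *Twist1*+/- frontal bone, and the tooth sum, like *Ihh*, in the library labelled *Twist1*+/- parietal.

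The ratios of the genes that the pathway induces were not of 1 sign. In the library labelled *Twist1*+/- parietal against wild-type parietal bone, the log2 ratio was 2.49 for the ligand gene *Ihh*, 0.19 for *Gli1*, -0.45 for *Ptch1* and -1.15 for *Hhip*. The ratio of *Gli1* to *Ptch1* FPKM was 0.740 in wild-type frontal, 0.829 in *Twist1*+/- frontal, 1.45 in wild-type parietal and 2.27 in the library labelled *Twist1*+/- parietal. The ratio of *Gli1* to *Hhip* was 4.55, 5.41, 3.96 and 10.05 in the same order. Both ratios were highest in the library labelled *Twist1*+/- parietal. With the GC trend subtracted the sign for *Gli1* turned, to -0.38, while *Ptch1* was at -0.69 and *Hhip* at -0.70.

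For 7 of the 9 members the ratio of genotypes had opposite signs in the bones or the ratio of bones opposite signs in the genotypes, as it had in 60.5% of genes. Across the comparisons, 1 of the 9 members (*Ihh*) was past 3-fold between the parietal libraries and none was so elsewhere. The share of all genes past 3-fold was 3.89% between the frontal libraries, 13.3% between the wild-type bones and 4.09% between the bones labelled *Twist1*+/-. Without the floor of 1 FPKM, *Shh* also counted as past 3-fold in both comparisons with wild-type parietal bone, through its value listed at 0. The median difference in log2(FPKM + 1) over all 9 members was -0.05 between the parietal libraries, 0.03 between the frontal libraries, 0.32 between the wild-type bones and 0.13 between the bones labelled *Twist1*+/-, beside a median of 0 over all genes in each. Many of all genes were under 1 FPKM in both libraries. Over genes at or above 1 FPKM the median was -0.05, -0.03, -0.01 and -0.03 in that order. Over members at or above 1 FPKM it was -0.18, 0.06, 0.48 and 0.24. Of the 6 members at or above 1 FPKM in all libraries, none had a range over the libraries above that of *Gli1*, 1.93-fold. Past 2-fold as deposited, the members were *Ihh* and *Hhip* between the parietal libraries and *Ihh* between the bones labelled *Twist1*+/-, where 11.9% of genes passed it. As deposited, none passed 2-fold between the frontal libraries (7.18% of genes) or between the wild-type bones (26.9% of genes). With the GC trend subtracted, *Smo* at -1.11 and *Gli2* at -1.02 passed 2-fold between the parietal libraries, and *Hhip* at -0.70 did not. The ratio of *Ihh* between the bones labelled *Twist1*+/- was then 0.83, within 2-fold. The absolute log2 ratio of *Ihh* between the parietal libraries exceeded that of 96.2% of genes at or above 1 FPKM, that of *Hhip* 84.5%, and those of the other 6 such members between 6.95% and 52.3%.

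**Figure D3:**
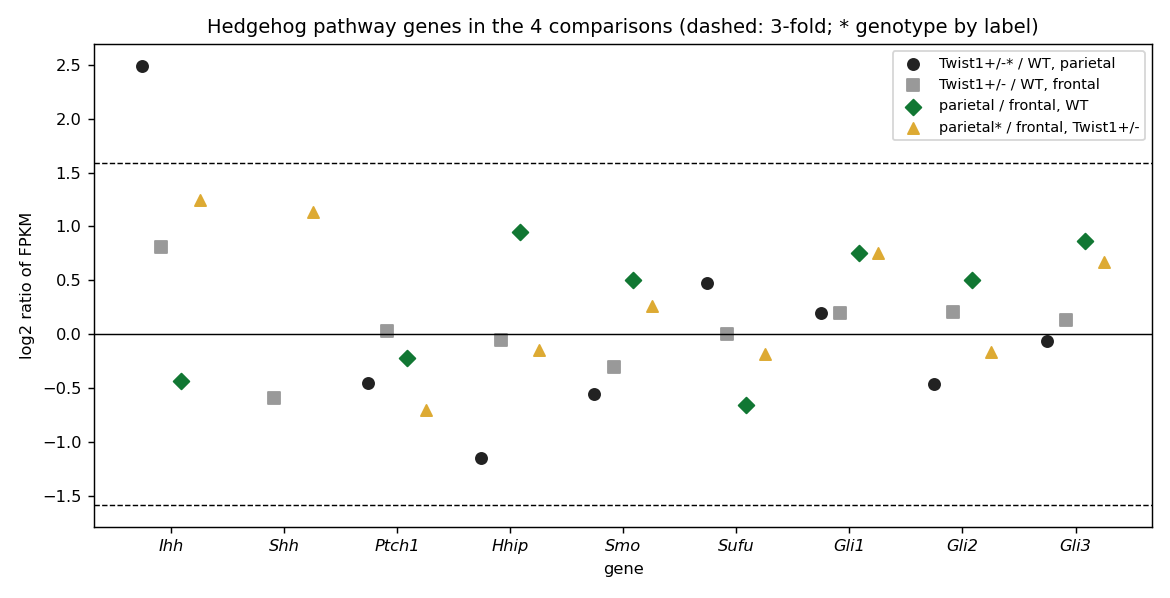
Log2 ratio of FPKM (vertical axis) for the 9 members (horizontal axis) in 4 comparisons, 1 symbol each, with dashed lines at 3-fold (WT, wild type, and an asterisk for the genotype taken from the label). *Ihh* at 2.49 in the parietal comparison is the only point beyond a dashed line, and *Shh* has no symbol in the comparisons with wild-type parietal bone, where it is listed at 0.

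**Figure D4:**
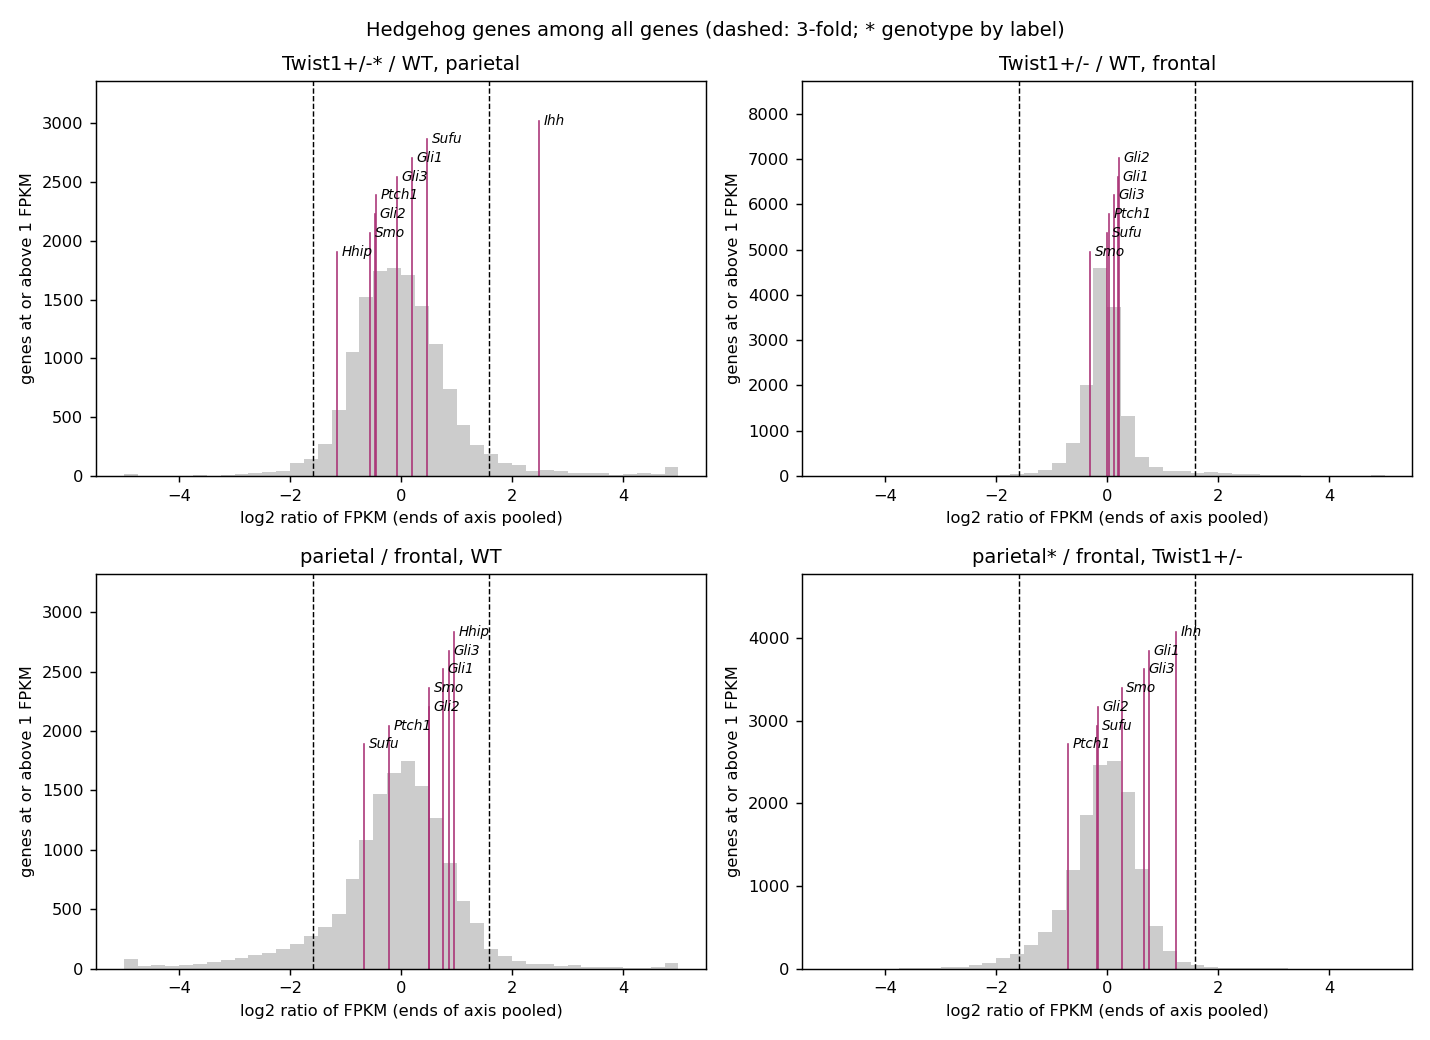
Number of genes at or above 1 FPKM (grey bars, vertical axis) by log2 ratio of FPKM (horizontal axis, genes beyond 5 pooled at the ends, genes listed at 0 left out) in 4 comparisons, with lines of arbitrary height for members at or above 1 FPKM and dashed lines at 3-fold (WT, wild type, and an asterisk for the genotype taken from the label). Apart from *Ihh* between the parietal libraries, each member shown lies between the dashed lines.

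Of 51 further genes of the pathway in 6 lists, 41 to 44 reached 1 FPKM in a comparison. Past 3-fold were 1 between the parietal libraries (8.19% of all genes) and none between the frontal libraries (3.89%). In each comparison of bones 2 were, beside 13.3% of all genes in wild type and 4.09% with the *Twist1*+/- label. *Osr2*, a transcription factor of palate and joint development placed among the Hedgehog-responsive genes, was at 0.669 FPKM in wild-type frontal, 0.469 in *Twist1*+/- frontal, 0.183 in wild-type parietal and 1.60 FPKM in labelled *Twist1*+/- parietal bone. It was 8.76-fold higher in the last library than in wild-type parietal bone and 3.41-fold higher than in *Twist1*+/- frontal bone. Like *Ihh*, it reached 1 FPKM only through its value in that library. With a pseudocount of 0.1 FPKM or the GC trend subtracted, *Osr2* was no longer past 3-fold between the bones labelled *Twist1*+/-. Its order of libraries at both ends was that of *Ihh*, highest in the library labelled *Twist1*+/- parietal and lowest in wild-type parietal bone, as in 10.2% of genes. Of the other Hedgehog-responsive genes, *Ccnd2*, the highest of its list and a cell cycle gene, was at 35.1, 32.6, 64.2 and 35.9 FPKM in the same order. *Foxc2* was at 6.48, 7.61, 5.59 and 10.5 FPKM. *Osr2* and *Foxc2* were thus highest in the library labelled *Twist1*+/- parietal and *Ccnd2* in wild-type parietal bone.

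*Disp2*, a relative of the ligand release gene *Disp1* that is known from brain, was at 5.09 FPKM in wild-type frontal, 2.22 in *Twist1*+/- frontal, 0.181 in wild-type parietal and 0.611 FPKM in labelled *Twist1*+/- parietal bone. It was 28.2-fold lower in wild-type parietal than in wild-type frontal bone and 3.63-fold lower between the bones labelled *Twist1*+/-. The neuronal markers *Snap25* (50.1, 50.8, 1.53 and 18.6 FPKM) and *Syt1* (28.5, 17.8, 0.636 and 4.55 FPKM) were also lower in both parietal libraries. Between the frontal libraries *Snap25* differed little, and *Syt1*, like *Disp2*, was lower in the *Twist1*+/- library. In that comparison 9 of the 14 brain and meninges markers were lower and 5 higher. Of these, 3 were past 3-fold lower, beside 3.89% of all genes past 3-fold in either direction. Of the 14 brain and meninges markers, 11 were lower and 3 higher in wild-type parietal than in wild-type frontal bone. *Ptgds*, the brain and meninges marker of highest mean, was at 1975, 327, 52.8 and 428 FPKM. The summed FPKM of all 14 was 2611, 944, 1279 and 1171, with 10 past 3-fold lower and 1 higher in wild-type parietal than in wild-type frontal bone and none listed at 0, and their part in the values of *Disp2* was not tested. *Disp1*, which encodes the transporter that releases ligand from the cell, had the highest mean of its list, at 5.08, 3.91, 3.15 and 5.08 FPKM. Of the co-receptors, *Gas1* was at 23.5, 33.6, 58.0 and 52.9 FPKM, above *Smo* in every library and higher in both parietal libraries. The co-receptors *Boc* and *Cdon* differed little, at 10.2 to 12.0 FPKM and 4.66 to 5.47 FPKM.

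None of 17 *Smo* and Gli regulators and none of 8 genes of transport in the primary cilium passed 3-fold in any comparison. Of the regulators 15 or 16 reached 1 FPKM in a comparison, as did all 8 cilium genes. The share of all genes past 3-fold was 3.89% to 13.3%. *Csnk1a1*, the highest of the regulators and a kinase that phosphorylates Gli proteins, was at 86.0, 90.2, 106 and 79.6 FPKM in wild-type frontal, *Twist1*+/- frontal, wild-type parietal and labelled *Twist1*+/- parietal bone. *Kif3a*, a motor subunit needed to build cilia and the cilium gene of highest mean, was at 9.26, 10.2, 7.37 and 8.63 FPKM. Both varied by less than 1.5-fold. Among 4 growth plate partners of *Ihh*, *Col10a1*, the collagen of hypertrophic chondrocytes, was at 0.485, 0.643, 2.60 and 1.09 FPKM and was 5.37-fold higher in wild-type parietal than in wild-type frontal bone. It was highest where *Ihh* was lowest. *Pth1r*, the receptor for parathyroid hormone and its related protein, was at 112, 119, 114 and 250 FPKM, highest in the library labelled *Twist1*+/- parietal. *Pthlh*, the ligand gene of that receptor, was at 0.732, 0.900, 2.02 and 1.19 FPKM.

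**Figure D5:**
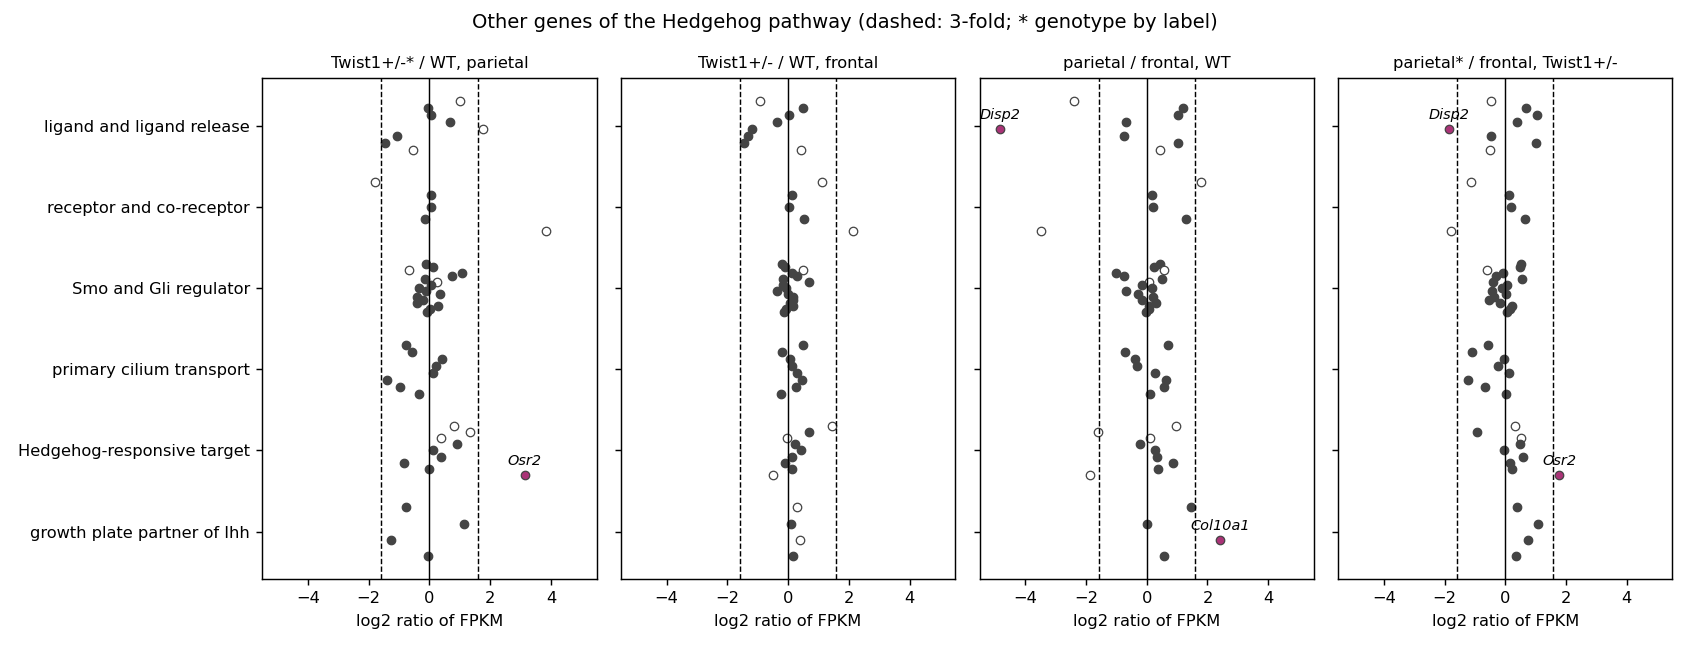
Log2 ratio of FPKM (horizontal axis) for 51 further pathway genes in 6 lists (vertical axis), 1 panel per comparison and 1 circle per gene, open where neither library reached 1 FPKM, with dashed lines at 3-fold (WT, wild type, and an asterisk for the genotype taken from the label). Filled coloured circles with names are *Osr2*, *Disp2* and *Col10a1*, the only genes called.

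Genes whose profile was closest to that of a member were sought among 13874 genes with a mean of at least 1 FPKM (13875 for *Ihh*), by the largest absolute difference of log2(FPKM + 1), centred on its mean, over the 4 libraries. For *Gli1* they were *Haghl*, *Cdk10*, *Mdfi*, *Stk19* and *Mrpl12*, with differences of at most 0.03, and 72 genes lay within 0.1. For *Ptch1* they were *Rnpc3*, *Zhx1*, *Cep19*, *Ccdc85c* and *Agtpbp1*, also within 0.03, and 114 genes lay within 0.1. For *Ihh* they were *Rarg*, *Pias4*, *Bcl3*, *Atoh8* and *N4bp3*, with differences of 0.05 to 0.07, and 15 genes lay within 0.1. No other member and no gene of the wider pathway was among these. *Rarg* was at 27.9, 31.8, 24.4 and 51.1 FPKM, so the likeness to *Ihh* holds on the scale of log2(FPKM + 1) and not for the plain ratio. With 4 libraries, many genes lie as close as these.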

How the data were processed

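The authors purified RNA with a miRNeasy kit, captured poly(A) RNA for a strand-specific library kit, and read single ends of 75 bases. Per the submitters' processing notes and the paper's methods, reads were aligned to mm9 with STAR 2.4.2a and quantified as FPKM per gene with Cuffdiff (Cufflinks 2.2.1). The values deposited by the authors are these FPKM, 1 per gene and library. The scaling option of Cuffdiff is not given in the sources used here. Depth per library cannot be read from FPKM, so no interval or detection limit is given.

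Each library was grouped by its label. Ratios were formed for 4 comparisons, without a pseudocount, and called past 3-fold at or above 1 FPKM in the higher library. With 1 library per group no test was possible. The members and lists were chosen with earlier results of these data known. Genes named are all members, wider pathway genes past 3-fold, the gene of highest mean in each pathway list, the 5 closest profiles for *Gli1*, *Ptch1* and *Ihh*, the checks *Twist1* and *Gapdh*, and the marker of highest mean in a list. *Dhh*, *Boc*, *Cdon*, *Foxc2*, *Pthlh*, *Snap25*, *Syt1*, *Matn1*, *Dspp*, *Amtn*, *Klk4*, *Col1a1* and *Col1a2* were named outside this rule, after their values were seen. Positions, GC content and transcripts came from GENCODE M1 (NCBIM37, the same build as mm9), with a GC value for 80.8% of genes, all 9 members and 48 of 51 wider pathway genes. Upstream sequences came from RefSeq (GRCm38.p6), matched by symbol for 7 members. Alternatives were pseudocounts of 1 and 0.1 FPKM, no floor, a floor of 10 FPKM, a 2-fold limit, scaling to the same median ratio or *Gapdh* value, and subtraction of the median log2 ratio in 20 groups by GC content. Python 3.11.15 with pandas 2.3.3 was used.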

Additional observations from a re-analysis of the deposited data

Results flagged for a closer look

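With 1 library per group the difference between groups in a contrast cannot be tested, so a gene is listed here where its genotype ratio had opposite signs in the bones, or its bone ratio had opposite signs in the genotypes. The value given is the log2 ratio of *Twist1*+/- to wild-type in parietal bone, from the library labelled so, minus that in frontal bone, and the difference was not tested for any gene. Of the 9 members, 7 met this, and 60.5% of the genes that reached 1 FPKM in any library met it too. The value was 1.68 for *Ihh*, which was higher with the label in both bones but was lower in parietal than in frontal wild-type bone and higher between the bones labelled *Twist1*+/-. It was -1.10 for *Hhip* and -0.67 for *Gli2*, both higher in parietal than in frontal bone in wild type alone. It was -0.49 for *Ptch1*, 0.48 for *Sufu* and -0.20 for *Gli3*, whose frontal ratios were near 0, at 0.03, -0.0024 and 0.13. For *Shh*, listed at 0 in wild-type parietal bone, it was 0.32 on the scale of log2(FPKM + 1). Among the wider pathway genes past 3-fold it was 3.64 for *Osr2*, 2.95 for *Disp2* and -1.66 for *Col10a1*.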

How the results depend on the processing

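No paired analysis was possible because each group is 1 library and the labels carry no replicate numbers, and no library could be left out of a comparison. The 1 member past 3-fold between the parietal libraries became 0 with a pseudocount of 1 FPKM or a floor of 10 FPKM, and 2 with no floor (*Ihh* and *Shh*) or a 2-fold limit (*Ihh* and *Hhip*). The count of 0 between the wild-type bones became 1 with no floor (*Shh*), and that between the bones labelled *Twist1*+/- became 1 with a 2-fold limit (*Ihh*). Between the frontal libraries it stayed at 0 under every alternative run. For wider pathway genes, the 1 between the parietal libraries became 0 with a pseudocount of 1 FPKM or a floor of 10 FPKM, 4 with no floor and 7 with a 2-fold limit. The 0 between the frontal libraries became 1 with no floor and 3 with a 2-fold limit. The 2 between the wild-type bones became 1 with a pseudocount of 1 FPKM, 0 with a floor of 10 FPKM, 7 with no floor and 8 with a 2-fold limit. The 2 between the bones labelled *Twist1*+/- became 0 with a pseudocount of 1 FPKM or a floor of 10 FPKM, 1 with a pseudocount of 0.1 FPKM or the GC trend subtracted, 3 with no floor and 7 with a 2-fold limit. Fewer or more genes qualify by construction of each floor and limit. Of 170 alternative log2 ratios of members, 160 kept their sign and their side of 3-fold. The other 10 were *Ihh* with a pseudocount of 1 FPKM, given above, and changes of sign, the widest of them that of *Gli1* between the parietal libraries, from 0.19 to -0.38 with the GC trend subtracted. The ratio of *Gli3* between the parietal libraries, -0.07, became 0.01, 0.32 and 0.26 with scaling to the median ratio, scaling to *Gapdh* and the GC trend subtracted. Values under 1 FPKM, which include *Shh* everywhere and *Ihh* and *Hhip* in 3 libraries, rest on few reads, and their counting error is unknown.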
